A study of Danio rerio with 12 samples.

Results

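Transcript levels in whole zebrafish (Danio rerio) embryos injected with either of 2 morpholinos were compared, as a single side, with those of control embryos. A morpholino is an antisense oligonucleotide that blocks translation or splicing of its target RNA. The morpholino side held 8 arrays, 4 from embryos injected against Semaphorin6A (sema6A morphants) and 4 from embryos injected against PlexinA2 (plexinA2 morphants), out of 12 arrays in all. The control side held the other 4 arrays, which are labelled as wild-type and titled UIC, a short form that the sources used here do not spell out. All embryos were of the rx3:GFP strain, whose reporter is named after an eye field transcription factor gene. Injection was done at the single-cell stage. Embryos were kept in egg water at 25 °C, and the stage of collection is labelled 18 hours after fertilisation in 1 place and 18 somites in another. The labels name no injection for the controls, so effects of losing the targeted proteins and effects of the injection itself cannot be told apart. Arrays of 1 group are labelled biological replicates, with no word on whether they came from separate clutches. The p values therefore measure the spread between these samples. Each sample held whole embryos, in which fewer cells of a type and less RNA per cell cannot be told apart.

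The genes described were those whose 8 morphant arrays all lay above, or all lay below, the 4 control arrays on the log2 scale of the deposited intensities. They are called separated here. Of 5134 rows, each 1 Ensembl gene, 150 were separated, which is 2.92% of the table. In 108 (2.1%) the morphants were higher and in 42 (0.818%) they were lower. The values of this comparison chose the genes, so their differences from control are given as a description of the response and not as separate evidence for it. Rows of sema6a and plxna2, the genes the morpholinos target, were not analysed here.

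Semaphorins are secreted or membrane-bound guidance cues, and plexins are their receptors, which pass the signal on through small GTPases and through cytoskeletal enzymes. Cells that meet DNA damage or other stress can stop dividing through inhibitors of the cell cycle such as p21, or die by mitochondrial apoptosis, which Puma, Noxa and Bax bring about. AP-1 is a dimer of Fos and Jun family proteins that is made quickly after many kinds of stress. Morpholino injection is known to cause cell death in some zebrafish knockdowns.

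The arrays were of 1 platform and were read in a single colour. Their median intensities lay between 608 and 708. Control replicate 2 had a mean rank correlation with the other arrays of 0.835, and sema6A replicate 1 one of 0.876. The other 10 arrays lay between 0.907 and 0.932. Of the whole-embryo markers looked up, hbae1.3 and gata1a (blood), SIX3 (forebrain and eye) and ELAVL3 (neurons) were measured. Their control levels lay at or above the percentile 68 of all rows, while the markers of muscle, notochord, hatching gland and epidermis that were looked up had no row in the table used. The eye markers rx1 and rx2 and the neural marker sox3 had no row either.

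The response held in common was mainly one of rises. The separated rises had differences from 0.58 to 4.31 on the log2 scale, with a median of 1.19, and 71 of the 108 exceeded 1. The separated falls ran from −0.46 to −1.42 with a median of −0.88, and 12 of the 42 went below −1. The gap between the lowest morphant and the highest control array exceeded 1 in 18 of the rises and 2 in 7 of them. For the falls the corresponding gap was at most 0.56. The median control level was 8.94 for the rises and 9.69 for the falls, against 9.32 for all rows.

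**Figure D1:**
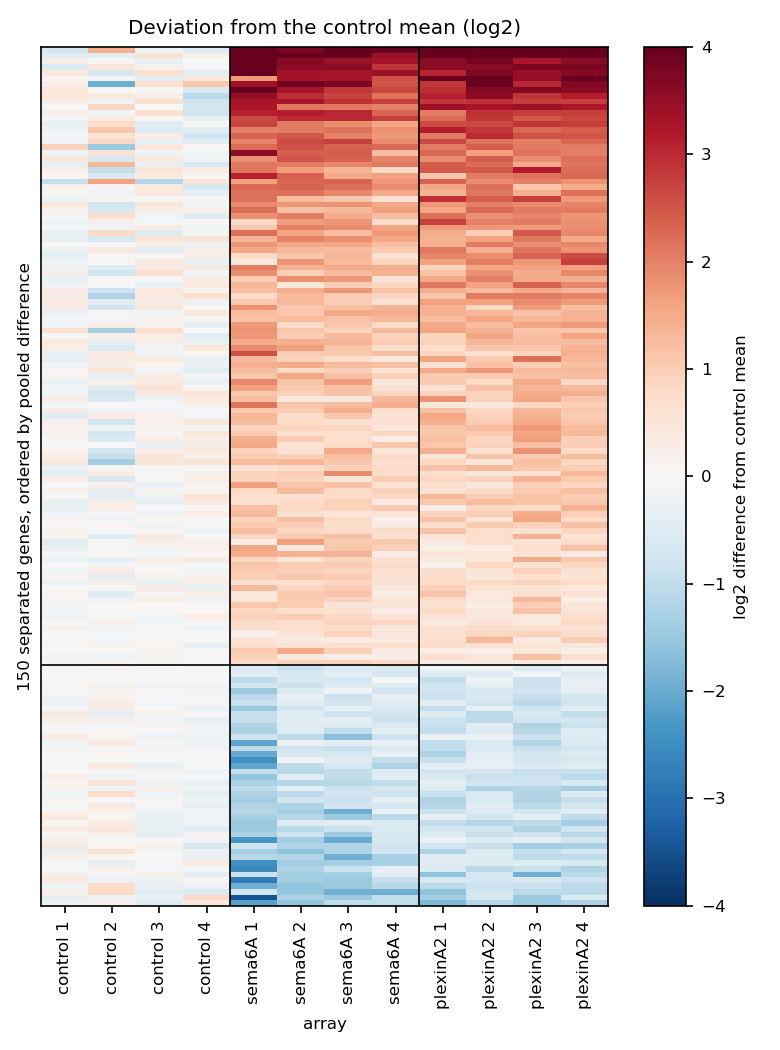
Each of the 150 separated genes is a line and each of the 12 arrays a column. Colour gives the deviation from the gene's control mean on the log2 scale, clipped at 4 in either direction, and genes are ordered by the pooled difference. The 108 rises lie above the dividing line and the 42 falls below it, and the deepest colours are among the rises.

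A limma fit over all 5134 rows, with the mean of both morphant groups set against control, called 142 rows (2.77%) at an adjusted p under 0.05. It called 122 rows higher in morphants (2.38%) and 20 lower (0.39%), against 852 rows at an unadjusted p under 0.05. Of the 150 separated genes it called 90 (1.75% of all rows), 77 of the rises (1.5%) and 13 of the falls (0.253%). The calls and the separation rest on the same arrays. When each array in turn was left out, 54 of the 77 rises and 2 of the 13 falls were called in all 12 fits. The 77 became 117 without control replicate 4. The count of 142 became 84 without control replicate 1, 87 without sema6A replicate 2, 89 without sema6A replicate 3, 90 without plexinA2 replicate 3 and 83 without plexinA2 replicate 4. The number of separated rises became 176 without control replicate 2 and 218 without control replicate 4. The number of separated falls became 89 and 144 in these cases, and 71 without sema6A replicate 4. Leaving out any array can only add separated rows, and why the counts differ between arrays was not tested.

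Several genes of growth arrest and Mdm2 feedback rose in the morphants. Of 20 measured genes of that list, 9 were called higher (45%, against 2.38% of all rows), none was called lower and 11 were not called. Their median difference was 0.98, against 0.05 over all rows, and 18 of the 20 were higher. All 8 morphant arrays lay above the controls for 10 of the 20 (2.1% of all rows were such rises). Taken array by array, the median deviation of the list from its genes' control means lay between 0.63 and 1.12 in the 8 morphant arrays and between −0.18 and 0.29 in the controls. This list and those below were chosen with earlier results of these data known. Their deviations are taken from the means of these same controls. Shares and deviations of the lists therefore describe the response and are not separate evidence for it.

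PHLDA3 (ENSDARG00000037804) encodes a pleckstrin homology protein that restrains Akt. The 4 controls read 8.71, 8.60, 8.14 and 8.45, against 12.60, 12.12, 11.94 and 11.81 in sema6A and 12.10, 12.29, 11.71 and 12.10 in plexinA2 morphants. All morphant arrays stood at least 3 log2 units above the highest control, the widest gap in the table. PHLDA3 rose 12.2-fold, by 3.61 ± 0.24 in log2 units (adjusted p = 2.05e-08).

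The ubiquitin ligase gene mdm2 (ENSDARG00000033443) is itself induced by DNA damage. In log2 units, the control arrays stood at 13.78, 12.56, 13.86 and 13.24, the sema6A arrays at 15.25, 15.14, 15.16 and 14.92 and the plexinA2 arrays at 15.11, 15.37, 15.25 and 15.36. mdm2 exceeded its control mean by 1.83 ± 0.26 on the log2 scale, which is 3.56-fold (adjusted p = 0.000252). Control replicate 2 was the lowest array, and the spread among the morphants was smaller than that among the controls.

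The gene cdkn1a (ENSDARG00000076554) encodes the cyclin-dependent kinase inhibitor p21. Sema6A morphants had log2 levels of 10.08, 10.24, 9.73 and 9.51 and plexinA2 morphants of 9.81, 10.75, 10.32 and 10.29, and the controls had 7.67, 8.32, 8.07 and 6.98. For cdkn1a the pooled difference was 2.33 ± 0.28 (SE), or 5.04-fold (adjusted p = 4.48e-05). Control replicate 4 was the lowest array and the groups did not overlap. GADD45A (ENSDARG00000043581) encodes a growth arrest and DNA damage protein. Array values (log2) were 8.58, 8.56, 8.45 and 7.10 for control, 11.70, 11.14, 10.88 and 10.35 for sema6A and 11.29, 11.78, 11.03 and 11.31 for plexinA2. GADD45A was 8.08-fold higher in morphants, 3.02 ± 0.32 in log2 units (adjusted p = 6.26e-06). Control replicate 4 again lay lowest, and all morphant arrays were at least 1.78 above the highest control. SESN1 encodes sestrin 1, a stress protein that restrains TORC1 signalling. Its log2 levels were 9.69, 8.47, 9.95 and 9.76 in the controls, 11.60, 11.13, 10.83 and 10.25 in sema6A morphants and 11.91, 11.92, 12.63 and 11.69 in plexinA2 morphants. SESN1 rose 4.08-fold, by 2.03 ± 0.32 in log2 units (adjusted p = 0.000693). The plexinA2 arrays were the higher of the morphant arrays, with a group difference from control of 2.57 against 1.49 in sema6A morphants, and the direct test between the morphants did not call it (adjusted p = 0.0921).

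Weaker rises in the list were those of CDKN1B, which encodes the inhibitor p27 (1.03 ± 0.23, adjusted p = 0.0156), of the polo-like kinase gene PLK2 (1.39 ± 0.32, adjusted p = 0.0217) and of the transcription factor gene TP73 (1.07 ± 0.25, adjusted p = 0.0245). The PLK2 call was lost without sema6A replicate 2, plexinA2 replicate 2, plexinA2 replicate 3 or plexinA2 replicate 4, with an adjusted p of up to 0.0538. The TP73 call was lost without control replicate 1, plexinA2 replicate 1, sema6A replicate 3 or plexinA2 replicate 3, with an adjusted p of up to 0.124. PLK3, another polo-like kinase gene, and the cyclin G1 gene CCNG1 were separated but not called. PLK3 read 13.61 to 14.35 (median 14.11) in the morphants and 13.37, 12.12, 13.57 and 13.28 in the controls (difference 0.99 ± 0.28, adjusted p = 0.0651). CCNG1 was at 14.95 to 15.22 (median 15.10) in the morphants and 14.55, 14.64, 14.61 and 14.15 in the controls (difference 0.62 ± 0.22, adjusted p = 0.144). The inhibitor gene cdkn2a/b was called (difference 3.16 ± 0.46, adjusted p = 0.00032) without being separated. Its control replicate 2, at 8.82, lay above sema6A replicate 4, at 8.51, and the other morphant arrays read from 10.35 to 11.15.

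**Figure D2:**
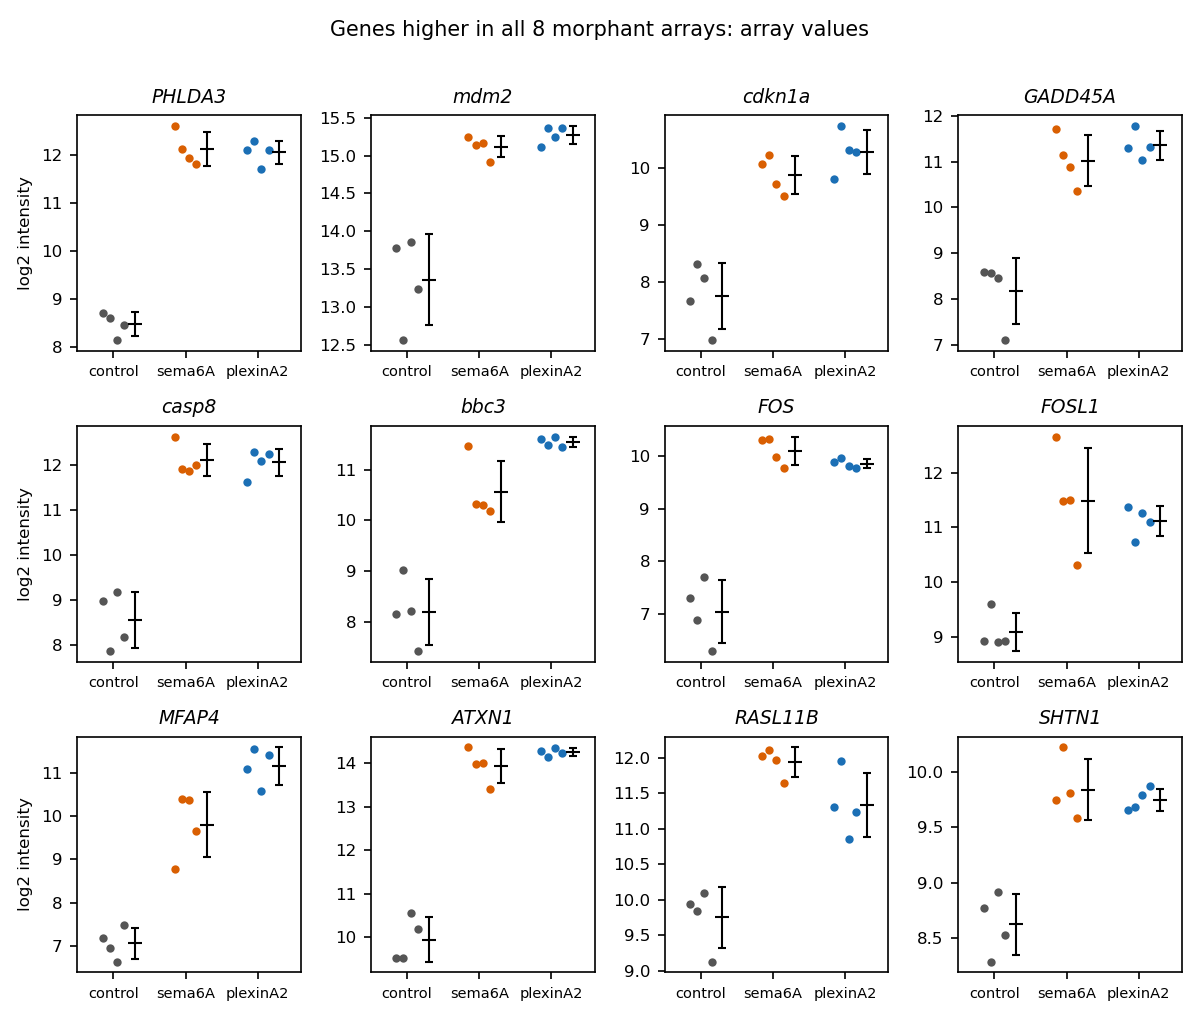
Log2 intensity of 12 genes in each array, with the mean and SD of each group of 4 as the bar beside the points. Control, sema6A and plexinA2 morphant arrays stand from left to right, and in every panel all 8 morphant points lie above the 4 control points, most widely for PHLDA3.

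Genes of the apoptosis list also rose. Of 17 measured genes, 6 were called higher (35.3%, against 2.38% of all rows), none lower and 11 were not called. Of the 17, 5 were separated, all as rises (2.1% of all rows were). The median difference was 0.54. It was 0.34 without control replicate 2. By array, the median deviation of the list was 0.35 to 0.99 in the morphants and −0.24 to 0.12 in the controls.

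The initiator caspase gene casp8 (ENSDARG00000058325), which acts below death receptors, had the largest difference of the list. The 4 controls read 8.97, 7.87, 9.18 and 8.18, against 12.62, 11.90, 11.86 and 11.99 in sema6A and 11.61, 12.28, 12.07 and 12.23 in plexinA2 morphants. casp8 exceeded its control mean by 3.52 ± 0.28 on the log2 scale, which is 11.5-fold (adjusted p = 2.05e-07). Morphant arrays of both kinds lay together and well clear of all controls. bbc3 (ENSDARG00000069282) encodes Puma, a BH3-only protein that opens the mitochondrial route to apoptosis. In log2 units, the control arrays stood at 8.14, 9.01, 8.20 and 7.42, the sema6A arrays at 11.46, 10.31, 10.30 and 10.18 and the plexinA2 arrays at 11.61, 11.48, 11.65 and 11.44. For bbc3 the pooled difference was 2.86 ± 0.30 (SE), or 7.25-fold (adjusted p = 6.93e-06). The plexinA2 arrays and sema6A replicate 1 were the highest, and the lowest morphant array was 1.17 above the highest control. pmaip1 (ENSDARG00000089307) encodes Noxa, another BH3-only protein. Sema6A morphants had log2 levels of 10.88, 10.19, 9.31 and 9.43 and plexinA2 morphants of 8.87, 9.85, 9.97 and 10.10, and the controls had 7.89, 7.22, 8.20 and 7.89. pmaip1 was 4.07-fold higher in morphants, 2.02 ± 0.32 in log2 units (adjusted p = 0.000838). The lowest morphant array, plexinA2 replicate 1, remained above every control.

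BAX, which encodes the pore-forming protein on which the BH3-only proteins converge, read 9.62 to 10.50 (median 10.22) in the morphants and 8.91, 9.23, 9.13 and 8.76 in the controls. BAX rose 2.26-fold, by 1.18 ± 0.23 in log2 units (adjusted p = 0.00522). The initiator caspase gene casp10 read 7.41 to 9.33 (median 7.83) in the morphants and 6.48, 7.13, 6.67 and 6.87 in the controls. casp10 exceeded its control mean by 1.20 ± 0.30 on the log2 scale, which is 2.3-fold (adjusted p = 0.0338). The casp10 call was lost in 5 of the 12 fits without an array (largest adjusted p = 0.128). Its highest array was sema6A replicate 1, at 9.33. The caspase gene casp21 was called (1.63 ± 0.27, adjusted p = 0.0011) but overlapped, since its sema6A arrays at 6.38 to 7.12 reached into the control range and its plexinA2 arrays stood at 8.07 to 9.06. The morphants differed in casp21 by −2.01 on the log2 scale, sema6A minus plexinA2 (adjusted p = 0.00379).

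In the DNA damage response and repair list, 2 of 18 measured genes were called higher (11.1%, against 2.38% of all rows). None was called lower and 16 were not called, with a median of 0. That median was −0.34 without control replicate 2. EXO5 (ENSDARG00000042727) encodes an exonuclease of DNA repair. Array values (log2) were 9.38, 8.96, 8.92 and 8.33 for control, 12.98, 12.20, 11.72 and 11.58 for sema6A and 11.84, 12.57, 12.61 and 12.50 for plexinA2. For EXO5 the pooled difference was 3.35 ± 0.29 (SE), or 10.2-fold (adjusted p = 6.19e-07). The lowest morphant array was 2.19 above the highest control. PARP3 encodes an ADP-ribosyltransferase that responds to DNA breaks. Its log2 levels were 7.73, 7.53, 8.05 and 7.24 in the controls, 9.85, 9.83, 9.57 and 9.14 in sema6A morphants and 9.01, 9.74, 9.08 and 9.83 in plexinA2 morphants. PARP3 was 3.64-fold higher in morphants, 1.87 ± 0.26 in log2 units (adjusted p = 0.000235). All 8 morphant arrays were at least 0.95 above the highest control. UNG, the uracil-DNA glycosylase gene, was separated in the other direction and not called, at 11.53 to 12.57 (median 11.98) in the morphants and 13.03, 12.84, 12.98 and 12.69 in the controls (difference −0.90 ± 0.25, adjusted p = 0.0595).

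Repair genes outside that list were among the rises as well. rnf169 encodes a ubiquitin-binding protein recruited to DNA breaks. The 4 controls read 9.26, 10.29, 9.07 and 9.60, against 12.26, 11.64, 11.42 and 11.12 in sema6A and 12.15, 12.19, 12.41 and 12.33 in plexinA2 morphants. rnf169 rose 5.22-fold, by 2.38 ± 0.28 in log2 units (adjusted p = 2.46e-05). The sema6A arrays lay between the controls and the plexinA2 arrays except for sema6A replicate 1, which was level with the plexinA2 arrays. REV1, chosen after its values were seen, encodes a polymerase of translesion synthesis and read 10.98 to 12.18 (median 11.67) in the morphants and 9.93, 9.60, 10.44 and 10.53 in the controls (difference 1.51 ± 0.26, adjusted p = 0.00204).

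Of 12 measured AP-1 and immediate early genes, FOS and FOSL1 were called higher (16.7%, against 2.38% of all rows). None was called lower and 10 were not called. The median was 0.27, and 6 genes were higher and 6 lower, so the rise was that of these Fos family genes and not of the list. FOS (ENSDARG00000031683) encodes the Fos subunit of AP-1. In log2 units, the control arrays stood at 7.30, 6.89, 7.70 and 6.30, the sema6A arrays at 10.31, 10.33, 9.98 and 9.77 and the plexinA2 arrays at 9.89, 9.96, 9.81 and 9.77. FOS exceeded its control mean by 2.93 ± 0.26 on the log2 scale, which is 7.61-fold (adjusted p = 8.12e-07). The lowest morphant array was 2.07 above the highest control, and the 8 morphant arrays lay between 9.77 and 10.33. FOSL1 (ENSDARG00000015355) encodes Fra-1, a related subunit. Sema6A morphants had log2 levels of 12.66, 11.48, 11.50 and 10.31 and plexinA2 morphants of 11.37, 10.74, 11.27 and 11.09, and the controls had 8.92, 9.60, 8.90 and 8.92. For FOSL1 the pooled difference was 2.22 ± 0.33 (SE), or 4.65-fold (adjusted p = 0.00046). Sema6A replicate 1 was the highest array and sema6A replicate 4 the lowest of the morphants, and no morphant array reached the control range.

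Among 38 genes of heat shock, chaperones and redox stress, 3 were called higher (7.89%, against 2.38% of all rows). None was called lower, and the median was 0.02. nupr1a encodes a small stress-induced nuclear protein and read 12.64 to 13.60 (median 13.22) in the morphants and 11.32, 12.07, 11.30 and 10.93 in the controls. nupr1a was 3.45-fold higher in morphants, 1.79 ± 0.26 in log2 units (adjusted p = 0.000323). The chaperone gene HSPH1, of the Hsp110 family, read 7.62 to 8.69 (median 8.23) in the morphants and 6.89, 6.59, 7.59 and 7.08 in the controls. HSPH1 rose 2.16-fold, by 1.11 ± 0.27 in log2 units (adjusted p = 0.0311). The HSPH1 call was lost in 7 of the 12 fits without an array (largest adjusted p = 0.114). The peroxiredoxin gene prdx1 was called (1.24 ± 0.28, adjusted p = 0.0212) and overlapped through control replicate 2, which at 10.66 was more than 1 above the other controls. The prdx1 call was lost without control replicate 1, control replicate 3 or plexinA2 replicate 4, with an adjusted p of up to 0.108. Of the stress transcription factor genes outside the list, chosen after their values were seen, atf5a differed by 2.00 ± 0.40 (adjusted p = 0.00694) with controls from 7.36 to 10.16, and NFE2L1, which activates proteasome genes, by 1.21 ± 0.28 (adjusted p = 0.0217). The NFE2L1 call was lost without control replicate 2, sema6A replicate 2, control replicate 3 or plexinA2 replicate 4, with an adjusted p of up to 0.0662.

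In the list of innate immunity and antigen presentation, some genes rose in the pooled comparison. Of its 53 measured genes, 10 were called higher (18.9%, against 2.38% of all rows), none lower and 43 were not called, and the median difference was 0.46 with 37 genes higher. Of the 53 genes 4 were separated, all as rises (2.1% of all rows were). They were nfkbiaa, PSME2, TNFAIP6 and isg20, all among the 10 called. Set against control on their own, the sema6A morphants passed for cd40 and TNFAIP6 alone among the 10 (3.12% of all rows passed there), and the plexinA2 morphants passed for each of the 10 (2.86% of all rows). These comparisons share their controls, and of the 10 the direct test between the morphants called LECT2. By array, the median deviation was 0.13 to 0.67 in the morphants, lowest in sema6A replicates 1 and 4, and −0.20 to 0.08 in the controls.

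The inhibitor of NF-κB gene nfkbiaa (ENSDARG00000005481), itself an NF-κB target, had the smallest p of the separated members. Array values (log2) were 10.66, 9.90, 10.65 and 10.07 for control, 11.37, 11.63, 11.32 and 10.92 for sema6A and 11.96, 11.95, 12.20 and 12.02 for plexinA2. nfkbiaa exceeded its control mean by 1.35 ± 0.24 on the log2 scale, which is 2.56-fold (adjusted p = 0.00268). The plexinA2 arrays lay above all sema6A arrays, and the sema6A arrays above all controls. PSME2, a subunit gene of the PA28 proteasome activator, was a dim row. Its log2 levels were 6.07, 6.24, 6.59 and 5.94 in the controls, 6.67, 7.98, 7.48 and 7.09 in sema6A morphants and 7.81, 8.26, 7.94 and 8.98 in plexinA2 morphants. For PSME2 the pooled difference was 1.56 ± 0.29 (SE), or 2.95-fold (adjusted p = 0.00361). Its sema6A replicate 1 cleared the highest control by only 0.08. The PSME2 control mean was 6.21, against a median control level of 9.32 over all rows. Other named rows were dimmer in the controls, among them gig2p (5.66), ghrh (5.64), rlbp1b (5.43), gja12.2 (5.45) and SLC1A2 (5.80). The hyaluronan-binding protein gene TNFAIP6 read 8.12 to 8.66 (median 8.47) in the morphants and 7.58, 6.79, 7.46 and 6.92 in the controls. TNFAIP6 was 2.4-fold higher in morphants, 1.26 ± 0.24 in log2 units (adjusted p = 0.00425). The interferon-stimulated exonuclease gene isg20 read 12.22 to 13.38 (median 12.88) in the morphants and 11.69, 12.13, 11.53 and 11.24 in the controls. isg20 rose 2.25-fold, by 1.17 ± 0.24 in log2 units (adjusted p = 0.00975).

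The other 6 called members overlapped with the controls. They were the TNF receptor family gene cd40 (difference 2.21), b2m, which encodes the light chain of MHC class I (1.87), the complement gene c3a.6 (1.40), the chemotactic factor gene LECT2 (1.25), the dendritic cell surface gene cd83 (1.23) and the metalloproteinase gene MMP9 (1.06). For cd40 a single control array, replicate 2 at 9.46, exceeded the lowest morphant array, at 9.44. LECT2 stood at 5.87 to 6.65 in sema6A morphants and 7.87 to 8.86 in plexinA2 morphants, with controls at 5.60 to 6.48. The c3a.6 call was lost in 9 of the 12 fits without an array (largest adjusted p = 0.112). The cd83 call was lost in 8 of the 12 fits without an array (largest adjusted p = 0.108). The MMP9 call was lost in 7 of the 12 fits without an array (largest adjusted p = 0.134). The LECT2 call was lost without control replicate 1, with an adjusted p of up to 0.0663. Separated immune genes outside the list, chosen after their values were seen, were the chemokine receptor gene cxcr3.3 (1.3 ± 0.25, adjusted p = 0.0052) and gig2p, of a fish interferon-induced family (1.27 ± 0.26, adjusted p = 0.0071). The antigen peptide transporter gene tap2t, also outside the list and chosen that way, was called and overlapped (1.34 ± 0.26, adjusted p = 0.00481). Unlike most called members of the list, tap2t differed more in sema6A (1.71) than in plexinA2 morphants (0.97).

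The largest rises of all included genes with no place in these lists. si:dkey-204l11.1 (ENSDARG00000079403) had the largest pooled difference in the table. The 4 controls read 7.80, 9.91, 8.27 and 7.92, against 13.08, 12.23, 12.86 and 12.57 in sema6A and 12.53, 12.88, 12.79 and 13.32 in plexinA2 morphants. si:dkey-204l11.1 exceeded its control mean by 4.31 ± 0.34 on the log2 scale, which is 19.8-fold (adjusted p = 1.88e-07). Control replicate 2 was the highest control, and the gap to the morphants was still 2.33. ATXN1 (ENSDARG00000060862) encodes ataxin-1, a chromatin-associated protein that binds the repressor Capicua. In log2 units, the control arrays stood at 9.53, 9.52, 10.55 and 10.19, the sema6A arrays at 14.36, 13.98, 14 and 13.41 and the plexinA2 arrays at 14.28, 14.13, 14.35 and 14.24. For ATXN1 the pooled difference was 4.15 ± 0.26 (SE), or 17.7-fold (adjusted p = 1.72e-08). Sema6A replicate 4 was the lowest morphant array and still 2.86 above the highest control. A further row of the same symbol did not pass (0.25 ± 0.27, adjusted p = 0.724). The capicua gene cica, chosen after its values were seen, also rose, from 10.77, 11.37, 10.53 and 11.21 in the controls to 12.01 to 13.11 (median 12.48) in the morphants (difference 1.58 ± 0.25, adjusted p = 0.000695).

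RBL2 (ENSDARG00000045636) encodes p130, a pocket protein that represses E2F targets when cells leave the cycle. Sema6A morphants had log2 levels of 14.45, 14.04, 14.09 and 13.37 and plexinA2 morphants of 14.07, 14.05, 14.24 and 14.25, and the controls had 9.93, 10.92, 10.65 and 10.38. RBL2 was 12.1-fold higher in morphants, 3.60 ± 0.26 in log2 units (adjusted p = 5.06e-08). It was the only separated rise among the 51 genes of the cell cycle list, while 2.1% of all rows were separated rises. MFAP4 (ENSDARG00000090557) encodes a fibrinogen-domain glycoprotein of the extracellular matrix, and in zebrafish the family member mfap4 is used as a macrophage marker. Array values (log2) were 7.18, 6.96, 6.64 and 7.49 for control, 8.79, 10.39, 10.37 and 9.66 for sema6A and 11.08, 11.54, 10.58 and 11.42 for plexinA2. MFAP4 rose 10.6-fold, by 3.41 ± 0.31 in log2 units (adjusted p = 8.72e-07). The plexinA2 arrays lay above all sema6A arrays (sema6A minus plexinA2 −1.35, adjusted p = 0.0535), and both above all controls. rpz5 (ENSDARG00000075718) belongs to the rapunzel family of fish genes. Its log2 levels were 8.91, 6.71, 9.29 and 9.73 in the controls, 12.02, 12.55, 12.39 and 11.17 in sema6A morphants and 11.48, 12.60, 11.69 and 12.36 in plexinA2 morphants. rpz5 exceeded its control mean by 3.37 ± 0.44 on the log2 scale, which is 10.3-fold (adjusted p = 0.000102). Control replicate 2 was far below the other controls, and the group differences in sema6A and plexinA2 morphants were both 3.37.

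Other large rises were single genes of varied function. mat2al encodes a methionine adenosyltransferase-like protein, of the enzyme family that makes S-adenosylmethionine. The 4 controls read 10.43, 10.08, 10.85 and 9.45, against 13.29, 13.34, 13.22 and 12.52 in sema6A and 12.29, 13.12, 12.98 and 12.98 in plexinA2 morphants. For mat2al the pooled difference was 2.76 ± 0.29 (SE), or 6.79-fold (adjusted p = 6.01e-06). The GTP-binding protein gene GTPBP1 read 12.50 to 13.25 (median 12.97) in the morphants and 10.18, 10.61, 10.35 and 9.89 in the controls. GTPBP1 was 6.49-fold higher in morphants, 2.70 ± 0.23 in log2 units (adjusted p = 5.86e-07). A further GTPBP1 row did not pass (0.28 ± 0.25, adjusted p = 0.652). ace, which encodes angiotensin-converting enzyme, read 10.35 to 11.66 (median 10.73) in the morphants and 8.37, 9.60, 8 and 8.07 in the controls. ace rose 5.08-fold, by 2.35 ± 0.30 in log2 units (adjusted p = 7.17e-05). The controls other than replicate 2 lay at or below 8.37. The kinase gene VRK2 read 9.86 to 10.38 (median 10.07) in the morphants and 8.76, 6.35, 8.29 and 7.90 in the controls. VRK2 exceeded its control mean by 2.26 ± 0.34 on the log2 scale, which is 4.78-fold (adjusted p = 0.000423). UPB1, which encodes an enzyme of pyrimidine breakdown, read 12.17 to 12.86 (median 12.43) in the morphants and 10.80, 9.66, 10.74 and 10.21 in the controls. For UPB1 the pooled difference was 2.13 ± 0.27 (SE), or 4.37-fold (adjusted p = 6.9e-05).

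Further separated and called rises, chosen after their values were seen, had smaller differences. The metabolic genes among them were GPD1, a glycerol-3-phosphate dehydrogenase gene (1.69), AZIN1, the antizyme inhibitor gene of polyamine synthesis (1.48), and the glucuronosyltransferase gene ugt5e1 (1.19). A further GPD1 row did not pass (−0.57 ± 0.27, adjusted p = 0.299). The growth factor gene igf2a rose from 10.46, 10.32, 10.65 and 10.16 in the controls to 11.63 to 12.49 (median 12.04) in the morphants (difference 1.66 ± 0.23, adjusted p = 0.00022). metrnlb, a meteorin-like gene, differed by 1.69, the homeodomain gene PROX2 by 1.68 and PHLDA2, a relative of PHLDA3, by 1.46. The pim-related kinase gene pimr191 differed by 1.86, ankrd50l by 1.79, dcdc2b by 1.71, LNX1 by 1.41 and caprin2 by 1.33. Each of these 12 genes kept its call when any single array was left out, except ugt5e1. The ugt5e1 call was lost without control replicate 1, sema6A replicate 2, plexinA2 replicate 3 or control replicate 4, with an adjusted p of up to 0.114.

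The remaining called rises with a symbol, also chosen after their values were seen, lay between 0.87 and 1.29. They were fam110a (1.29), RNF150 (1.16), PPM1E (1.08), TMEM132E (1.03), hephl1a (1.02), apba2a (0.95), stk36 (0.94), si:ch73-375g18.1 (0.93), fzr1b (0.92) and ghrh (0.87). fzr1b encodes an activator of the anaphase-promoting complex, and ghrh encodes growth hormone releasing hormone. Each of the 10 lost its call in at least 1 of the fits without an array, from 1 of 12 for PPM1E to 11 of 12 for stk36 and ghrh. The rises further included 13 rows without a symbol in the name table used, 7 of them called.

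Of 49 measured genes of the semaphorin, plexin and guidance list, 2 were called higher (4.08%, against 2.38% of all rows), none lower, and 47 were not called. The 2 called genes and mical2b were separated, all as rises (2.1% of all rows were). The median difference was 0.17, made up of −0.20 in sema6A and 0.49 in plexinA2 morphants. RASL11B (ENSDARG00000015611) encodes a Ras-like small GTPase and was named because later work on this ligand and receptor pair studied it. In log2 units, the control arrays stood at 9.94, 9.84, 10.10 and 9.13, the sema6A arrays at 12.03, 12.11, 11.97 and 11.64 and the plexinA2 arrays at 11.30, 11.95, 10.86 and 11.23. RASL11B was 3.68-fold higher in morphants, 1.88 ± 0.26 in log2 units (adjusted p = 0.000235). The sema6A arrays were mostly the higher ones, and the lowest morphant array, plexinA2 replicate 3, was 0.76 above the highest control. RND3, a small GTPase gene whose protein binds plexins, read 12.25 to 13.44 (median 12.71) in the morphants and 11.73, 12.01, 11.52 and 11.96 in the controls. RND3 rose 1.91-fold, by 0.94 ± 0.24 in log2 units (adjusted p = 0.0447). The RND3 call was lost in 9 of the 12 fits without an array (largest adjusted p = 0.136). A further RND3 row did not pass (0.14 ± 0.25, adjusted p = 0.843).

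SHTN1 (ENSDARG00000039697) encodes shootin, a neuronal polarity protein, and was named for the same reason as RASL11B. Sema6A morphants had log2 levels of 9.75, 10.22, 9.81 and 9.58 and plexinA2 morphants of 9.66, 9.68, 9.79 and 9.87, and the controls had 8.77, 8.29, 8.92 and 8.53. SHTN1 exceeded its control mean by 1.17 ± 0.23 on the log2 scale, which is 2.24-fold (adjusted p = 0.00608). It was the only called gene of the 43 in the neurogenesis and neural list (2.33%, against 2.77% of all rows). mical2b, of the MICAL family of flavoenzymes that act on actin below plexins, was separated by 0.0027 and was not called (0.97 ± 0.33, adjusted p = 0.124). Its control replicate 2 was at 9.48 while the other controls were at 11.30 to 11.37. Cytoskeletal regulators outside the list, chosen after their values were seen, were the Rac exchange factor gene TIAM1 (1.04 ± 0.26, adjusted p = 0.0398) and the Abl family kinase gene ABL2 (0.91 ± 0.23, adjusted p = 0.0422). The TIAM1 call was lost in 10 of the 12 fits without an array (largest adjusted p = 0.0946). The ABL2 call was lost in 8 of the 12 fits without an array (largest adjusted p = 0.168).

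Of 61 matrix genes, 3 were called higher (4.92%, against 2.38% of all rows) and none lower, with a median of −0.07. Besides MFAP4 and MMP9 this was MMP2, the gelatinase gene, at 13.67 to 14.12 (median 13.93) in the morphants and 12.35, 12.63, 12.39 and 12.94 in the controls. For MMP2 the pooled difference was 1.32 ± 0.23 (SE), or 2.5-fold (adjusted p = 0.00162). Among 140 transporter genes 3 were called higher and 1 lower. That is 2.86% of the list, near the 2.77% of all rows. Of the 3 only ABCB6, an ABC transporter gene, was separated (1.09 ± 0.25, adjusted p = 0.0212). The ABCB6 call was lost without control replicate 1, control replicate 3 or plexinA2 replicate 4, with an adjusted p of up to 0.0806. Its sema6A arrays stood at 9.60 to 10.63, its plexinA2 arrays at 8.92 to 9.46 and its controls at 8.38 to 8.68.

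Falls in which both morphant groups lay below control were fewer, smaller and less stable. Of the 13 separated and called falls, 12 had a symbol. Their count became 40 without control replicate 4 and 32 without sema6A replicate 4. It became 2 without control replicate 1 and 7 without control replicate 3. It became 5 and 4 without sema6A replicates 2 and 3, and 8, 6, 3 and 3 without plexinA2 replicates 1 to 4. Only ATP1B4 and OTP were called in every such fit. Against control by themselves, the plexinA2 morphants passed for ATP1B4 and krcp alone among the 12 (2.86% of all rows passed there). The sema6A morphants passed for all of the 12 except krcp, ska1 and CDCA7 (3.12% of all rows). These comparisons share their controls, and the direct test between the morphants called none of the 12.

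ATP1B4 (ENSDARG00000053262) belongs to the beta subunit family of the sodium-potassium pump. Array values (log2) were 9.58, 10.05, 9.28 and 10.19 for control, 7.62, 8.19, 8.76 and 8.76 for sema6A and 8, 8.66, 8.31 and 8.53 for plexinA2. ATP1B4 was lower in morphants, with a log2 difference of −1.42 ± 0.28 (SE, adjusted p = 0.00578). The highest morphant arrays were 0.51 below the lowest control, and the sema6A and plexinA2 means differed by only 0.04. OTP (ENSDARG00000058379) encodes Orthopedia, a homeodomain protein of hypothalamic neuroendocrine neurons. Its log2 levels were 8.41, 9.32, 8.29 and 8.37 in the controls, 6.67, 7.01, 7.12 and 7.50 in sema6A morphants and 7.56, 7.73, 7.73 and 7.55 in plexinA2 morphants. OTP fell by 1.24 ± 0.26 in log2 units (adjusted p = 0.00898). Control replicate 2 was the highest array, and the lowest control lay 0.56 above the highest morphant array. A further OTP row did not pass (−0.70 ± 0.33, adjusted p = 0.285).

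FOXF1, a forkhead gene of lateral and splanchnic mesoderm, read 6.90 to 9.11 (median 8.83) in the morphants and 10.06, 9.46, 9.48 and 9.81 in the controls. For FOXF1 the pooled difference was −1.17 ± 0.30 (adjusted p = 0.0415). The FOXF1 call was lost in 9 of the 12 fits without an array (largest adjusted p = 0.155). Its lowest array was sema6A replicate 1 at 6.90, and the plexinA2 arrays were at 8.88 to 9.11. FOXF1 was the only called fall of the 90 genes in the list of homeobox and other developmental transcription factors, which does not hold OTP. The only called rise there was foxj1b (1.16 ± 0.27, adjusted p = 0.0245), which overlapped with the controls. Together they make up 2.22% of the list, against 2.77% of all rows called. In that list 62 genes were lower and 28 higher, the median was −0.26 (−0.42 in sema6A and −0.05 in plexinA2 morphants), and 7 genes were separated, all as falls (0.818% of all rows were). The list also leaves out the homeobox genes onecut3a and PROX2, which were separated as rises (0.80 and 1.68).

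**Figure D3:**
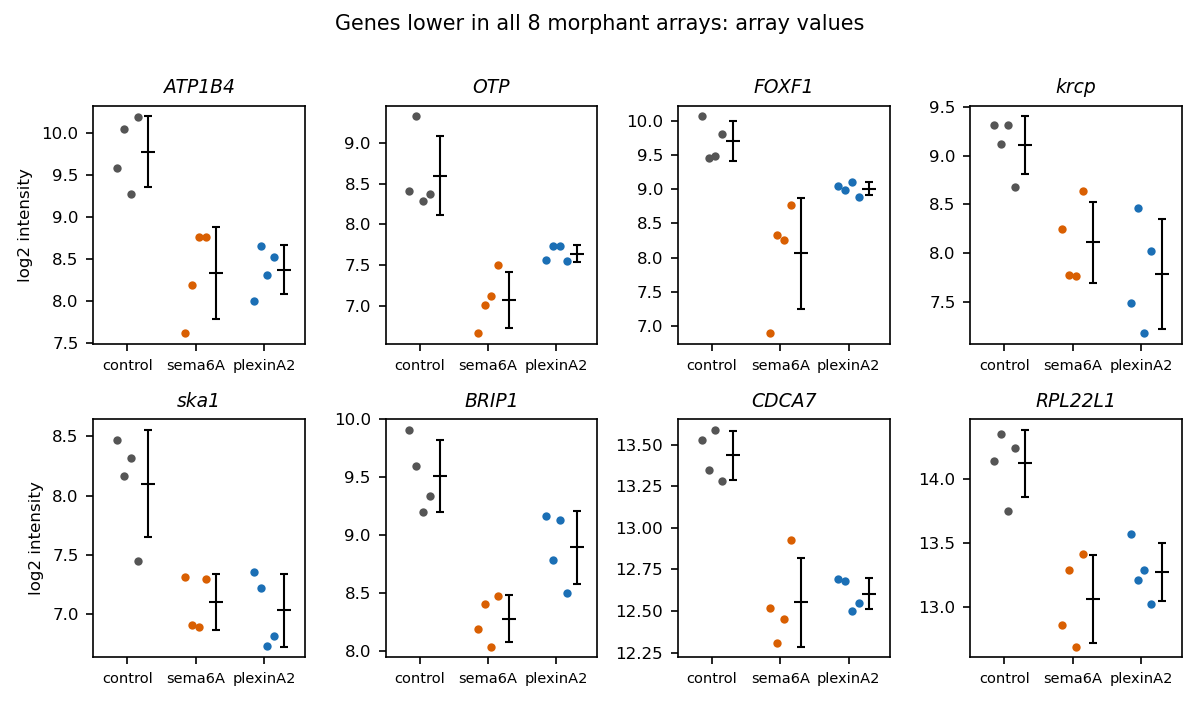
Log2 intensity of 8 genes that were lower in all morphant arrays, by array, with the mean and SD of each group of 4 as the bar beside the points. The vertical scales differ between panels and do not start at 0. The groups are closest for BRIP1, krcp and ska1, and sema6A replicate 1 is far below the other arrays for FOXF1.

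Among the called falls were 3 genes linked to cell division or DNA repair, none of them in the cell cycle list. The kinetochore gene ska1 read 6.73 to 7.36 (median 7.06) in the morphants and 8.47, 8.17, 8.32 and 7.45 in the controls. Pooled, ska1 stood −1.03 ± 0.25 from control in log2 units (adjusted p = 0.0331). The ska1 call was lost in 7 of the 12 fits without an array (largest adjusted p = 0.138). BRIP1, a helicase gene that works with BRCA1, read 8.04 to 9.17 (median 8.49) in the morphants and 9.91, 9.60, 9.20 and 9.34 in the controls. BRIP1 was lower in morphants, with a log2 difference of −0.92 ± 0.24 (SE, adjusted p = 0.0442). The BRIP1 call was lost in 10 of the 12 fits without an array (largest adjusted p = 0.178). CDCA7, a chromatin gene expressed with the cell cycle, read 12.31 to 12.93 (median 12.53) in the morphants and 13.53, 13.35, 13.59 and 13.28 in the controls. CDCA7 fell by 0.86 ± 0.22 in log2 units (adjusted p = 0.0431). The CDCA7 call was lost in 9 of the 12 fits without an array (largest adjusted p = 0.137). Its relative cdca7b was separated and not called, by nearly the same difference (−0.86 ± 0.25, adjusted p = 0.0805).

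Genes of replication and mitosis that were separated without being called were the replication genes GINS1, of the helicase complex (−0.89 ± 0.25, adjusted p = 0.0707), and ORC5, of the origin recognition complex (−0.80 ± 0.32, adjusted p = 0.211), and the mitotic transcription factor gene FOXM1 (−0.91 ± 0.28, adjusted p = 0.0939). CDC6, which loads the replicative helicase, was called (−1.24 ± 0.30, adjusted p = 0.0311) and overlapped, because control replicate 4 at 10.77 lay below sema6A replicate 4 at 10.92. The CDC6 call was lost in 7 of the 12 fits without an array (largest adjusted p = 0.125). Over the 51 genes of the cell cycle and replication list, 1 was called higher, 1 lower and 49 were not called, against 2.38% and 0.39% of all rows called higher and lower, and the median was −0.11. The median deviation of this list was −0.71 in control replicate 2, lower than in any other array, and 0.13 to 0.27 in the other controls. In the morphants it was −0.38 to 0.26. Without control replicate 2 the median of the list was −0.46, and the part of that array in the list's level was not tested further.

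The other called falls were of mixed function. krcp, which encodes a kelch-repeat protein, read 7.18 to 8.64 (median 7.90) in the morphants and 9.31, 9.12, 9.31 and 8.68 in the controls. For krcp the pooled difference was −1.16 ± 0.28 (adjusted p = 0.0311). The krcp call was lost in 7 of the 12 fits without an array (largest adjusted p = 0.117). RPL22L1, a paralogue of a ribosomal protein gene, read 12.69 to 13.57 (median 13.25) in the morphants and 14.14, 14.35, 13.75 and 14.24 in the controls. Pooled, RPL22L1 stood −0.95 ± 0.24 from control in log2 units (adjusted p = 0.0387). The RPL22L1 call was lost in 9 of the 12 fits without an array (largest adjusted p = 0.117). grhprb, a glyoxylate reductase gene (−1.08 ± 0.26, adjusted p = 0.0295), ppp1caa, a catalytic subunit gene of protein phosphatase 1 (−1.06 ± 0.26, adjusted p = 0.0341), DHRS3, which encodes a retinaldehyde reductase (−0.88 ± 0.23, adjusted p just under the threshold), and zgc:174906 (−1.07 ± 0.25, adjusted p = 0.0222) completed the set. The grhprb call was lost in 7 of the 12 fits without an array (largest adjusted p = 0.0833). The ppp1caa call was lost in 8 of the 12 fits without an array (largest adjusted p = 0.0802). The DHRS3 call was lost in 10 of the 12 fits without an array (largest adjusted p = 0.146). The zgc:174906 call was lost in 5 of the 12 fits without an array (largest adjusted p = 0.103). A further DHRS3 row did not pass (0.19 ± 0.48, adjusted p = 0.902).

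The 29 separated falls that were not called included several genes of neural progenitors and early patterning. In the list of neurogenesis, Notch and neural genes 33 of 43 genes were lower and the median was −0.26. None was called lower, and 4 were separated as falls (0.818% of all rows were). Another 2 were separated as rises (2.1% of all rows were), among them SHTN1, the only called gene of the list. The falls were FABP7, the radial glial fatty acid binding protein gene (−1.40 ± 0.39, adjusted p = 0.0622), the progenitor gene SOX1 (−0.94 ± 0.26, adjusted p = 0.0558), SOX11, of immature neurons (−0.79 ± 0.25, adjusted p = 0.0972), and STMN1, which encodes the microtubule-destabilising protein stathmin (−0.83 ± 0.33, adjusted p = 0.21). FABP7 read 5.81 to 8.68 (median 7.93) in the morphants and 8.94, 9.05, 8.98 and 10.05 in the controls. SOX1 was at 5.95 to 6.79 (median 6.58) in the morphants and 7.72, 7.86, 7.09 and 6.94 in the controls. The lowest array was sema6A replicate 1 for FABP7, SOX1 and STMN1. The homeobox gene onecut3a was separated in the other direction (0.80 ± 0.25, adjusted p = 0.0958).

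Patterning genes that were separated but not called were foxd1, of the temporal retina and forebrain (−1.10 ± 0.32, adjusted p = 0.0784), the erythroid gene gata1a (−1.03 ± 0.28, adjusted p = 0.0562), PAX9, of the sclerotome and pharyngeal pouches (−0.84 ± 0.27, adjusted p = 0.106) and, chosen after its values were seen, GSX2, of the ventral forebrain (−0.82 ± 0.29, adjusted p = 0.149). For foxd1 the morphants read 9.03 to 11.24 (median 10.63) and the controls 11.54, 11.82, 11.57 and 11.52. For gata1a the plexinA2 arrays stood at 10.23 to 10.74, just below the controls at 10.87 to 11.14, and the sema6A arrays at 8.63 to 10.31. Sema6A replicate 1 was the lowest array for foxd1, gata1a, PAX9 and GSX2, and also for the list of blood and endothelium, whose median deviation was −1.64 there and −0.66 to 0.15 in the other morphant arrays.

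The rest of the uncalled falls, chosen after their values were seen, held the translation gene EIF4E2 (−0.68), the RNA-binding protein gene KHDRBS1 (−0.82), the tRNA-processing gene ELAC2 (−0.79), the heterochromatin protein gene CBX1 (−0.69), the potassium channel gene KCNN2 (−0.48) and the phosphatase-like gene PTPRN2 (−0.90). With them were ETNPPL (−0.88), MPND (−0.94), ACSF2 (−0.69), rtn2b (−0.73), CPNE2 (−0.75), chchd3b (−0.79) and si:ch1073-429i10.3 (−0.46). KHDRBS1 was the nearest of these to the threshold (adjusted p = 0.0518), with a gap of 0.42 between the groups. Among all 42 falls 3 rows had no symbol.

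The 31 separated rises that were not called had differences between 0.58 and 1.02. The largest was FAM43A (1.02 ± 0.27, adjusted p = 0.0505), followed among named genes by PLK3 and mical2b. Chosen after their values were seen, the others with a known role included the focal adhesion kinase relative PTK2B (0.85), UNC93B1, which transports Toll-like receptors (0.80), the glucocerebrosidase gene GBA2 (0.90), the Rap regulators SIPA1L3 (0.90) and RAP1GAP (0.72, and −0.08 ± 0.32, adjusted p = 0.945 for a further row), the connexin gene gja12.2 (0.88), the phosphatase gene ptp4a2b (0.79) and the lipin gene LPIN2 (0.68). The glutamate transporter gene SLC1A2 (0.62), the matrix genes SVEP1 (0.77) and ADAMTS18 (0.61), and TBXAS1, which encodes thromboxane synthase (0.71), were of the same size. So were FAM222B (0.75), ANKRD33B (0.75, and −0.63 ± 0.28, adjusted p = 0.266 for a further row), acbd5a (0.69), brf1a (0.66), btr09 (0.64), amy2al2 (0.63) and camkmt (0.58).

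The edge of separation was narrow. Just inside it among the rises were si:ch211-221n20.8, with a gap of 0.0002 on the log2 scale, mical2b and RAP1GAP. Just outside it, where the gap is negative because the groups overlap, were si:dkey-97i18.5, MMP9 and SLC4A2, with gaps of −0.006, −0.0084 and −0.0179. Just inside it among the falls were PAX9, with a gap of 0.001, ENSDARG00000015572 and BRIP1. Just outside it were MGST1, ppa1b and ENSDARG00000034763, with gaps of −0.004, −0.0127 and −0.0152.

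In 52 called rows the morphants overlapped with the controls, 45 of them higher and 7 lower. Leaving out control replicate 2 alone would have separated 19 of them and leaving out sema6A replicate 4 alone 18, while 4 were not separated by leaving out any single array. Of the 52 rows 17 kept their call in all 12 fits without an array. In 8 of the 52 (15.4%) the sema6A and plexinA2 morphants themselves differed in the limma contrast between them, which called 88 of 5134 rows (1.71%) and does not compare with the controls. Picking called rows that overlap with the controls favours rows where the morphants lie apart. This share was therefore not tested against the background. That count of 88 was 495 without control replicate 2, 248 without control replicate 4 and 157 without sema6A replicate 1. It was 15 and 10 without sema6A replicates 2 and 3, and 6, 15, 8 and 6 without plexinA2 replicates 1 to 4. Among them were rlbp1b, a retinaldehyde-binding protein gene (sema6A minus plexinA2 −2.88), the proteasome subunit gene PSMB2 (−2.15) and the cytochrome c oxidase subunit gene cox6b1 (−1.61). Their pooled differences were 1.81, −1.31 and −1.36. For PSMB2 the sema6A arrays stood at 10.31 to 11.58 and the plexinA2 arrays at 13.22 to 13.70, with controls at 13.38 to 13.84. The rlbp1b row was dim, at 5.15 to 5.91 in controls and 5.64 to 6.14 in sema6A morphants, and at 8.35 to 9.14 in plexinA2 morphants.

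Among the 150 separated genes 1 differed between the morphants (0.667%, against 1.71% of all rows). Separation selects rows in which both groups lie on the same side of the controls. That selection used the same arrays, so this share was not tested against the background. The gene was ENSDARG00000032768, at 7.79 to 8.53 in sema6A morphants, 9.08 to 9.81 in plexinA2 morphants and 6.81 to 7.44 in controls (sema6A minus plexinA2 −1.25, adjusted p = 0.0395). The absolute difference between the morphant means had a median of 0.26 over the 77 separated and called rises and 0.41 over the 13 falls, against 0.46 over all rows. It was at most 1.35 among the rises, in MFAP4, and 1.09 among the falls, in grhprb.

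Sizes in the 2 morphant groups were tallied without a test. Among the 77 separated and called rises the difference from control was larger in plexinA2 morphants in 48 and in sema6A morphants in 29. Among the 13 falls it was larger in sema6A morphants in 11. The comparisons with control share their control arrays, so values are given side by side. PHLDA3 differed by 3.64 in sema6A and 3.57 in plexinA2 morphants, casp8 by 3.55 and 3.50, FOS by 3.05 and 2.81, and mdm2 by 1.76 and 1.91. The values were 2.37 and 3.35 for bbc3, 2.73 and 4.09 for MFAP4, and 2.18 and 1.58 for RASL11B. For the falls they were −1.44 and −1.40 in ATP1B4, −1.52 and −0.96 in OTP, and −1.62 and −0.53 in grhprb. The direct test between the morphants called none of these 10 genes.

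**Figure D4:**
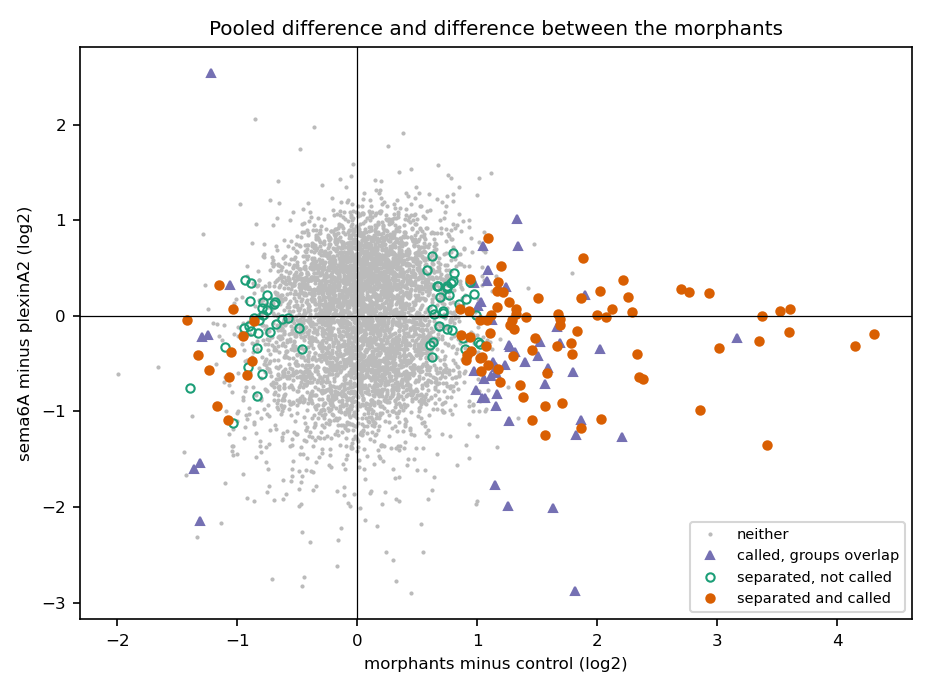
Each of the 5134 rows is placed by its pooled difference from control (horizontal, log2) and by sema6A minus plexinA2 (vertical, log2). Filled circles are separated and called, open circles separated and not called, and triangles called with overlap. The filled circles on the right lie near 0 on the vertical axis, within 1.35 of it, while rlbp1b and PSMB2, at −2.88 and −2.15, are among the triangles far from it.

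Averaged by array, the 77 separated and called rises had a mean deviation from control of 1.40 to 1.94 in the morphants and −0.08 to 0.11 in the controls. Sema6A replicate 4 was the lowest of the morphants and plexinA2 replicate 3 the highest. For the 42 separated falls the mean deviation was −1.43 in sema6A replicate 1 and −0.99 to −0.65 in the other morphant arrays. These averages describe genes that were chosen on the same arrays.

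Few genes of the tissue lists were called. No gene was called in the somite list (21 genes, median −0.33), the blood and endothelium list (25, −0.37), the epidermis, hatching gland and notochord list (27, 0.03) or the maternal and germ line list (14, −0.17). Over all rows 2.77% were called, and at that share lists this small can hold none. The counts therefore do not show that these lists lacked a response. The somite median was −0.36 in sema6A and −0.21 in plexinA2 morphants, and the blood median −0.53 and 0.03. The muscle list had 2 of 64 genes called higher (3.12%, against 2.38% of all rows). They were nebl (1.90), which encodes nebulette, and the smooth muscle myosin gene MYH11 (1.16), both overlapping with controls. The median of the muscle list was −0.03, made up of −0.58 in sema6A and 0.54 in plexinA2 morphants. In the direct test 7 of its genes differed between the morphants (1.71% of all rows did). The eye list had 1 of 21 genes called (4.76%, against 2.77% of all rows), rlbp1b, and a median of −0.03.

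**Figure D5:**
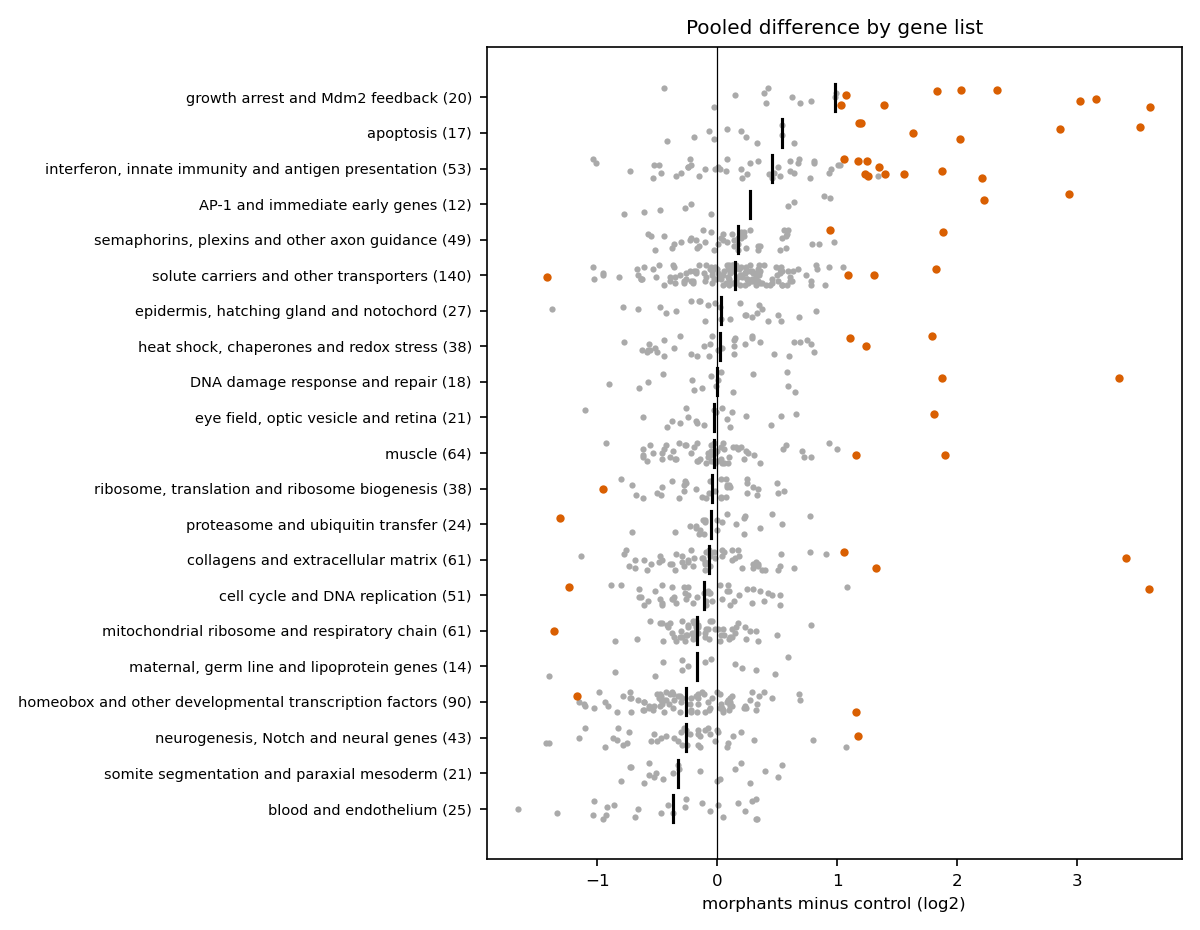
Pooled log2 difference from control of every measured gene of each list, with called genes in orange, the list median as a black bar and the number of genes in brackets. The growth arrest and apoptosis lists have medians of 0.98 and 0.54, and the other lists lie between −0.37 and 0.46.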

How the data were processed

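RNA of 12 samples, 4 per group, was measured on single-colour NimbleGen Zebrafish Gene Expression arrays. The deposited table holds linear intensity values between 26.3 and 42222. Per the submitters' processing notes they were made with RMA (background correction, normalization between arrays and probe summary), with no version named. RMA compresses differences among dim probes and brings arrays to a similar overall level. In the rows used here the array medians still ran from 608 to 708. The genome build and the choice of the 5134 rows are not given in the sources used here.

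Log2 values, taken without a pseudocount, entered limma 3.58.1 under R 4.3.3 (lmFit and eBayes) with group as the only term of 3 levels, 9 residual and 9.54 prior degrees of freedom. The pooled contrast was the mean of both morphant groups minus control. Tests were two-sided with Benjamini-Hochberg adjustment over 5134 rows and called at an adjusted p under 0.05. The script was tested on simulated data. Standard errors are limma's, with 8 morphant and 4 control arrays.

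Members and the 21 gene lists were chosen with earlier results of these data known, and a list is described by counts and its median. The rule for naming took the 20 largest rises and up to 15 largest falls among separated and called rows with a symbol, and only 12 such falls existed. It also took up to 4 rows of smallest p per list, rows at the edge of separation, RASL11B and SHTN1, and other list members separated and called. Not all rows of smallest p per list are named in the text. Those left out include genes that were not called, such as PAX3 and LIG1. A gene outside this rule was picked with its values known, and only some of these genes carry a remark that says so. Those without the remark include list members called with overlap, such as cdkn2a/b and b2m. They also include separated rows that were not called, such as PLK3 and FAM43A. Symbols from a gene name table matched 4349 rows and left 785 unnamed, and 2669 upper-case symbols do not tell duplicated genes apart. The alternatives tried were a replicate block, the morphants as 1 group, the dimmest 25% of rows left out, quantile normalization, median centring, array weights, a trended robust prior, and arrays left out. Sequences and promoter motifs were not analysed here, and some genes are not reported here.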

Additional observations from a re-analysis of the deposited data

Results flagged for a closer look

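In some groups a single array lay far from the other 3, by a gap that took most of the group's range (Dixon's criterion at the 95 percent level). Over the 465 combinations of a named gene and a group, 27 such arrays were low and 14 were high, and chance alone gives such a gap in about 1 of 20 groups. Control replicate 2 also stood apart in its mean rank correlation with the other arrays, 0.835. The cause of these deviations was not tested.

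Control replicate 2 was low for ankrd50l (8, nearest array 8.79), mical2b (9.48, nearest array 11.30), FAM222B (12.40, nearest array 13) and si:ch73-375g18.1 (8.08, nearest array 8.59). Control replicate 2 was high for FOSL1 (9.60, nearest array 8.92), foxd1 (11.82, nearest array 11.57), casp21 (6.71, nearest array 5.92) and OTP (9.32, nearest array 8.41). Sema6A replicate 1 was low for grhprb (8.51, nearest array 9.56), ORC5 (9.83, nearest array 11.50), ppa1b (9.08, nearest array 10.39), PSMB2 (10.31, nearest array 11.47), chchd3b (8.14, nearest array 8.76), SLC4A2 (10.49, nearest array 11.15) and MPND (10.40, nearest array 11.30). Sema6A replicate 1 was high for ADAMTS18 (11.81, nearest array 11.24), bbc3 (11.46, nearest array 10.31) and casp10 (9.33, nearest array 8.01). Sema6A replicate 4 was low for CDKN1B (10.13, nearest array 10.53), MGST1 (10.56, nearest array 11.49), ptp4a2b (13.51, nearest array 13.80), cdkn2a/b (8.51, nearest array 10.82), onecut3a (11.86, nearest array 12.87) and mat2al (12.52, nearest array 13.22). PlexinA2 replicate 1 was low for REV1 (10.98, nearest array 11.71), nebl (7.57, nearest array 8.18), ENSDARG00000034763 (9.60, nearest array 10.15), EXO5 (11.84, nearest array 12.50) and PLK2 (8.69, nearest array 9.53). PlexinA2 replicate 1 was high for PSMB2 (13.70, nearest array 13.30). PlexinA2 replicate 3 was low for si:ch1073-429i10.3 (14.47, nearest array 14.85) and SOX1 (6.19, nearest array 6.62). PlexinA2 replicate 3 was high for KCNN2 (8.96, nearest array 8.55) and PTK2B (11.19, nearest array 10.44). PlexinA2 replicate 2 was high for VRK2 (10.25, nearest array 9.90) and PHLDA2 (11.21, nearest array 10.71). Control replicate 4 was low for GADD45A (7.10, nearest array 8.45). Control replicate 4 was high for FABP7 (10.05, nearest array 9.05). Control replicate 1 was high for cdca7b (13.56, nearest array 13.23). Control replicate 3 was low for ghrh (5.48, nearest array 5.68). Sema6A replicate 2 was low for si:ch1073-429i10.3 (14.18, nearest array 14.46).

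The effects of the morpholinos differed from each other in a direct limma test for some named genes. On the log2 scale, sema6A minus plexinA2 was −2.15 for PSMB2, −1.25 for ENSDARG00000032768, −1.99 for LECT2, −1.61 for cox6b1, −2.88 for rlbp1b, −2.01 for casp21 and −2.31 for hbae1.3. Of these, ENSDARG00000032768 was separated, and hbae1.3 was named as a blood marker.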

How the results depend on the processing

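The growth arrest list's median and the other list medians not named here stayed within their spread in the alternatives run, and no difference of a single named gene reversed. The medians of 9 of the 21 lists, all between −0.17 and 0.27 in the values as deposited, changed sign in at least 1 alternative. Counts depended more on the settings. With the morphants as 1 group, 75 rows were called (71 higher, 4 lower) and 3 separated falls. With array weights, which gave control replicate 2 a weight of 0.16, 1373 were called (855 higher, 518 lower), 34 separated falls, and 2273 between the morphants. Quantile normalization gave 100 higher and 34 lower, 21 separated and called falls and 158 calls between the morphants, and median centring 97 and 35, 21 and 146, against 122 higher and 20 lower in the deposited scale. Without control replicate 2 and sema6A replicate 1 together, 32 rows were called lower, 211 rises and 96 falls were separated, 120 and 20 of these were called, and 880 differed between the morphants.

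Leaving out each array in turn gave 83 to 212 calls (76 to 164 higher, 5 to 51 lower), 109 to 218 separated rises, 44 to 144 separated falls, 58 to 117 and 2 to 40 of these called, and 6 to 495 calls between the morphants. List medians then ranged from 0.34 to 0.58 (apoptosis), −0.34 to 0.11 (DNA repair), −0.46 to −0.01 (cell cycle) and −0.07 to 0.16 (epidermis).

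Array weights moved the medians of DNA repair to −0.27, AP-1 to −0.04, somite to −0.68, cell cycle to −0.47, transporters to 0.32 and homeobox genes to −0.44. Without both arrays that stand apart they were −0.28 (DNA repair), 0.00 (AP-1), −0.21 (eye), −0.40 (neural), −0.45 (cell cycle) and 0.13 (mitochondrial). Without the dimmest 25% of rows they were 0.59 (AP-1) and −0.18 (eye). The causes were not tested. Of 2364 refitted values of single named genes, 189 lost a call and 81 gained one.

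Same-numbered deviations correlated at −0.242 to 0.361 (mean 0.042), and those of different numbers at −0.436 to 0.313 (mean −0.016). With so few arrays per group, this does not settle whether the replicate numbers of the labels pair the samples. With the replicate number as a block 120 rows were called (105 higher, 15 lower, 114 in common with the 142), 8 separated falls were called, and 144 rows differed between the morphants. Array number and brightness limit precision.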

Other observations

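Few genes of the lists in this paragraph were called. Of 61 genes of the mitochondrial ribosome and respiratory chain, 1 was called lower (cox6b1) and none higher, with 42 lower and 19 higher than in controls and a median of −0.17 (0.00 in sema6A and −0.31 in plexinA2 morphants). That median turned to 0.05 without control replicate 2, to 0.13 without it and sema6A replicate 1, and to 0.06 with array weights. Of 38 genes of ribosome and translation, 1 was called lower (RPL22L1) and none higher, with a median of −0.04. Of 24 proteasome and ubiquitin transfer genes, 1 was called lower (PSMB2) and none higher, with a median of −0.05. Over all rows 0.39% were called lower and 2.38% higher. Among 140 transporters, 92 were higher and 48 lower, with a median of 0.15. The embryonic alpha globin gene hbae1.3 had a pooled difference of −1.34 ± 0.41 (limma adjusted p = 0.0939), made up of −2.49 in sema6A and −0.18 in plexinA2 morphants.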
